A study of Homo sapiens with 10 samples.

Results

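The sgRNAs described here target 3 gene families whose expression is restricted to a few tissues: the keratin-associated proteins (KRTAP), the bitter taste receptors (TAS2R) and the beta-defensins (DEFB). Members were all rows of the count table whose gene symbol starts with KRTAP, TAS2R or DEFB. They numbered 413 sgRNAs against 150 genes, 0.739% of the 55849 sgRNAs listed. KRTAP had 260 sgRNAs against 90 genes, TAS2R had 72 against 24, and DEFB had 81 against 36. The guide sequences were not among the sources used here, so each sgRNA is given by its library identifier.

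The libraries came from a genome-wide CRISPR knockout screen in 22Rv1, an androgen-independent human prostate cancer cell line grown from a xenograft, and the stated question was which knockouts are tolerated less when MYCN is overexpressed. One arm was 22Rv1 cells labelled as overexpressing NMYC, the transcription factor encoded by MYCN. The other arm was parental 22Rv1 cells. The labels do not say which construct drives NMYC, whether either line is a clone, or whether the parental cells carry an empty vector. Both arms were infected with a lentiCRISPRv2 library labelled B, in which each virus carries Cas9 and 1 sgRNA, at a multiplicity of infection of 0.3 and a stated coverage of 300 cells per sgRNA, and were selected with puromycin. Cells were sampled at T0, after selection, and the replicate cultures were sampled again at T6 and T12, numbers that the labels give without a unit. Each arm had a single T0 library and a pair of libraries at both T6 and T12, and the total was 8783512 to 18398571 counts per library.

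Keratin-associated proteins form the matrix between the keratin filaments of the hair shaft and are made in the hair follicle. They are grouped by composition into high-sulfur, ultrahigh-sulfur and high glycine-tyrosine classes. Bitter taste receptors are G protein-coupled receptors of taste cells that signal through gustducin, phospholipase C beta 2 and the TRPM5 channel. Beta-defensins are small cationic antimicrobial peptides of epithelia, and many members are made mainly in the epididymis. In knockout screens, sgRNAs against genes that a cell line does not use serve as controls that cut the genome with little effect on growth. Expression of these genes in these cells was not measured in the data used here.

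The 3 families were represented unevenly in the library. An even share is the share of the listed sgRNAs that the family holds, and the ratio to it was above 1 for TAS2R in all 10 libraries. In NMYC cells this ratio for TAS2R was 1.234 at T0, 1.263 and 1.327 at T6, then 1.56 and 1.405 at T12. In parental cells it was 1.357 at T0, 1.111 and 1.354 at T6, then 1.281 and 1.088 at T12. TAS2R therefore held more counts per sgRNA than the library average from the first sample on, and the 2 arms did not overlap at T12. The non-targeting sgRNAs did not overlap there either, with 1.046 and 1.043 in NMYC cells and 0.9586 and 0.9672 in parental cells. The 10 highest TAS2R sgRNAs held 35.9% to 61.5% of the TAS2R counts of a library.

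For KRTAP the ratio to an even share stayed closer to 1. It was 1.052 at T0, 1.002 and 0.9803 at T6, then 0.992 and 0.953 at T12 in NMYC cells. The parental libraries gave 0.9072 at T0, 0.9042 and 0.9277 at T6, then 1.021 and 0.9751 at T12. The lowest values were those of parental T0 and T6.

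The DEFB ratio had its lowest value in the parental T0 library. NMYC cells had 1.061 at T0, 1.034 and 0.9102 at T6, then 0.9491 and 0.9452 at T12. Parental cells had 0.7558 at T0, 0.9369 and 1.145 at T6, then 0.9331 and 1.091 at T12. By this ratio all later parental libraries lay above their T0 library, while all later NMYC libraries lay below theirs. The ratio leans on few sgRNAs. In the NMYC T0 library the 10 highest DEFB sgRNAs held 63.3% of the DEFB counts. HGLibB_12834 against DEFB112 alone held 14.1% (3343 counts). The median DEFB count there was 104, below the 113 of all sgRNAs, although the ratio was above 1. In the parental T0 library the 10 highest held 57.6%. The order of the libraries without such sgRNAs was not tested. The ratio of the non-targeting sgRNAs ranged from 0.8999 to 1.046 over the same 10 libraries. Its lowest value was also that of the parental T0 library, with 0.9934 and 0.9803 at T6, then 0.9586 and 0.9672 at T12. In NMYC cells it was 0.9376 at T0 and higher in every later library, unlike the DEFB ratio. With 2 libraries a group, the smallest two-sided exact permutation p for a family's share is 0.333, so no difference in share between 2 such groups could pass that test, and no other test of the shares was run.

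Most members were seen in every library. Counts were above 0 in all 10 libraries for 194 of 260 KRTAP sgRNAs, 61 of 72 TAS2R sgRNAs and 63 of 81 DEFB sgRNAs. The same held for 42430 of all 55849 sgRNAs listed. No listed sgRNA, member or not, was at 0 in all 10. The labels state a library of 65000 sgRNAs and do not say why fewer are listed. The share of sgRNAs at 0 in a library was 3.08% to 9.62% for KRTAP, 0% to 6.94% for TAS2R and 0% to 9.88% for DEFB, against 2.98% to 9.15% for all sgRNAs. sgRNAs with a mean of under 20 counts over the 10 libraries were left out of the tests. This removed 16 KRTAP and 4 TAS2R sgRNAs and no DEFB sgRNA, and left 244, 68 and 81 tested members. Over all sgRNAs, 2809 of 55849 were left out (5.03%), and 53040 were tested.

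Replicate libraries ranked the members loosely. Spearman's rho between the 2 replicates of a group, over tested sgRNAs of a family, was 0.252 to 0.483 for KRTAP, 0.301 to 0.527 for TAS2R and 0.251 to 0.415 for DEFB. All sgRNAs gave 0.329 to 0.48. These correlations are across sgRNAs, which share a library and its depth, and they serve as a description. Between the replicates at T12 in NMYC cells, 40.2% of KRTAP, 35.3% of TAS2R and 43.2% of DEFB sgRNAs differed by more than 4-fold, and 37.6% of all sgRNAs did. In parental cells at T12 the shares were 43.0%, 33.8% and 44.4%, and 40.4% for all sgRNAs.

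The NMYC and parental T0 libraries ranked the members about as loosely as replicates of a group did. Their rho was 0.419 for KRTAP and 0.371 for TAS2R, within the ranges of the replicates, and 0.201 for DEFB and 0.324 for all sgRNAs, just below them. Most members with low T0 counts had a positive T12 against T0 fold change, and most with high T0 counts had a negative one. Of the 25 tested DEFB sgRNAs in the lowest quartile of the parental T0 counts (at most 13), 24 had a positive value, and the median was a log2 fold change of 6.17. Of the 16 in the highest quartile (at least 449), 13 had a negative one, with a median of -2.31. The T12 against T6 values of the same 2 sets had medians of -0.14 and 0.51. A T0 library enters both the T0 level and the fold change, so the 2 are not independent. The cause of this pattern was not tested.

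T12 was then compared with T0 in NMYC cells, the comparison that asks which knockouts are lost or gained under NMYC. No sgRNA of the 3 families passed an adjusted p of 0.05 in edgeR's quasi-likelihood test, where 0.0132% of all tested sgRNAs did. The smallest adjusted p was 0.184 for KRTAP, 0.661 for TAS2R and 0.305 for DEFB. At an unadjusted p under 0.05, 16 KRTAP sgRNAs were lower and 4 higher, 0 TAS2R sgRNAs were lower and 1 higher, and 4 DEFB sgRNAs were lower and 0 higher. These came to 8.20%, 1.47% and 4.94% of the families, against 6.79% of all sgRNAs. Relative to the median of all tested sgRNAs, the median log2 fold change was -0.16 for KRTAP, 0.24 for TAS2R and 0.03 for DEFB. That median of all sgRNAs was itself 0.24 in this comparison. Without NMYC T12 replicate 1 the DEFB median was -0.38, and without NMYC T12 replicate 2 the KRTAP median was -0.05.

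Among KRTAP sgRNAs, HGLibB_25566 against KRTAP10-2, a high-sulfur protein, had the smallest p in this comparison. It had 1740 counts at T0, 130 and 92 at T6, then 73 and 7 at T12 in NMYC cells. In parental cells it had 785 at T0, 327 and 708 at T6, then 626 and 523 at T12. All later NMYC libraries lay below every parental library, but the sgRNA was picked by its p for T12 against T0 in NMYC cells. The log2 fold change in NMYC cells was -5.67 ± 1.59 (SE), with an edgeR adjusted p of 0.184.

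HGLibB_25758 against KRTAP5-3, an ultrahigh-sulfur protein, had 1203 counts at T0, 22 and 69 at T6, then 1 and 3 at T12 in NMYC cells. The parental libraries had 6 at T0, 25 and 3 at T6, then 0 and 274 at T12, so the replicates at T12 disagreed there. Its log2 fold change in NMYC cells was -9.30 ± 2.86 (SE), with an edgeR adjusted p of 0.276. With the NMYC libraries fitted alone, edgeR gave this sgRNA an adjusted p of 0.0183 and DEFB136 sgRNA HGLibB_12894 an adjusted p of 0.0119. In that fit 0.545% of all tested sgRNAs passed, and these were the 2 members that did.

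The members with higher counts at T12 included HGLibB_25671 against KRTAP21-1, a high glycine-tyrosine protein. NMYC cells had 19 counts at T0, 134 and 219 at T6, then 892 and 986 at T12. Parental cells had 640 at T0, 232 and 668 at T6, then 590 and 562 at T12. Both NMYC libraries at T12 lay above the earlier NMYC libraries, but the sgRNA was picked by its p for T12 against T0 there. The log2 fold change was 5.45 ± 2.10 (SE), with an edgeR adjusted p of 0.526. The other 2 sgRNAs against KRTAP21-1 did not follow it. HGLibB_25672 had 243 counts at T0 and 130 and 27 at T12 in NMYC cells, and HGLibB_25673 had 642 at T0 and 712 and 228 at T12. HGLibB_25793 against KRTAP9-1 had 22 counts at T0 and 307 and 1999 at T12 in NMYC cells, with an edgeR adjusted p of 0.628.

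For the TAS2R family the smallest p on the lower side belonged to HGLibB_48351 against TAS2R43, a bitter receptor encoded in the chromosome 12 cluster. NMYC cells had 2194 counts at T0, 150 and 59 at T6, then 754 and 174 at T12. Parental cells had 74 at T0, 431 and 840 at T6, then 1450 and 1274 at T12. The NMYC T0 count was the highest of the 10, the parental T0 count was second lowest, and the log2 fold change in NMYC cells was -2.46 ± 1.27 (SE; edgeR adjusted p = 0.739). HGLibB_48368 against TAS2R7 had 18 counts at T0, 117 and 581 at T6, then 860 and 580 at T12 in NMYC cells, and its log2 fold change was 5.13 ± 2.33 (SE; edgeR adjusted p = 0.661). Of the sgRNAs against TAS2R4, HGLibB_48340 had 23 counts at T0 and 409 and 660 at T12 in NMYC cells, whereas HGLibB_48341 had 117 at T0 and 0 and 25 at T12. Those 2 sgRNAs target the same gene and lay on opposite sides of 0.

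For the DEFB family, HGLibB_12894 against DEFB136 had 1544 counts at T0, 517 and 5 at T6, then 5 and 11 at T12 in NMYC cells. Parental cells had 1 at T0, 170 and 55 at T6, then 14 and 49 at T12. The NMYC replicates at T6 were far apart and those at T12 were both low. The log2 fold change was -7.72 ± 2.45 (SE), with an edgeR adjusted p of 0.305. On the higher side, HGLibB_12880 against DEFB131 had 23 counts at T0 and 126 and 1119 at T12 in NMYC cells, and HGLibB_12824 against DEFB107B had 14 at T0 and 940 and 40 at T12. In both, 1 of the T12 libraries was far above the other.

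The same comparison was made in parental cells. No family sgRNA passed in edgeR, where 0.0226% of all tested sgRNAs did. The smallest adjusted p was 0.209 for KRTAP, 0.175 for TAS2R and 0.327 for DEFB. At an unadjusted p under 0.05, 8 KRTAP sgRNAs were lower and 22 higher, 7 TAS2R sgRNAs were lower and 6 higher, and 2 DEFB sgRNAs were lower and 8 higher. These were 12.3%, 19.1% and 12.3% of the families, against 11.2% of all sgRNAs. Relative to the median of all sgRNAs, which was 0.57, the median log2 fold change was 0.19 for KRTAP, -0.73 for TAS2R and 0.78 for DEFB. The spread within a family was several times wider than these medians, with an SD of 3.49 for KRTAP, 2.97 for TAS2R and 3.92 for DEFB, and 3.48 for all sgRNAs. With sgRNAs limited to those that reached 30 counts in each T0 library, the KRTAP median was -0.02 and the TAS2R median -0.30. The TAS2R median was also -0.09 without parental T12 replicate 1 and -0.16 without parental T12 replicate 2.

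KRTAP sgRNAs with higher parental counts at T12 included a pair against ultrahigh-sulfur members. HGLibB_25757 against KRTAP5-3 had 27 counts at T0, 404 and 997 at T6, then 2679 and 637 at T12 in parental cells. Its NMYC counts were 309 at T0, 818 and 391 at T6, then 984 and 1066 at T12. The parental T0 count was the lowest of the 10, and the parental log2 fold change was 5.72 ± 1.76 (SE; edgeR adjusted p = 0.209). HGLibB_25777 against KRTAP5-9 had 5 counts at T0, 469 and 49 at T6, then 1600 and 1003 at T12 in parental cells. The NMYC libraries held 1006 at T0, 72 and 57 at T6, then 241 and 22 at T12. The 2 arms ran in opposite directions from T0, and the parental log2 fold change was 7.76 ± 2.65 (SE; edgeR adjusted p = 0.284). Both sgRNAs were picked by their p for T12 against T0 in parental cells.

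On the lower side, HGLibB_25694 against KRTAP26-1 had 1580 counts at T0, 309 and 215 at T6, then 24 and 147 at T12 in parental cells, with a log2 fold change of -4.46 ± 1.63 (SE; edgeR adjusted p = 0.332). HGLibB_25805 against KRTAP9-6 had 1595 counts at T0, 204 and 6 at T6, then 25 and 72 at T12, with a log2 fold change of -5.29 ± 1.99 (SE; edgeR adjusted p = 0.348). In both, every later parental library lay below T0, but both were picked by their p for T12 against T0 in parental cells.

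In the TAS2R family, HGLibB_48352 against TAS2R43 had 278 counts at T0, 35 and 1300 at T6, then 2 and 2 at T12 in parental cells. NMYC cells had 167 at T0, 19 and 146 at T6, then 211 and 2 at T12. The parental T12 replicates were both near 0 although 1 of the T6 libraries had the highest count of the 10. The parental log2 fold change was -7.26 ± 2.14 (SE), with an edgeR adjusted p of 0.175. The third sgRNA against this receptor, HGLibB_48353, had 23 counts at T0 and 30 and 5 at T12 in parental cells, and HGLibB_48351 was higher at T12 than at T0 in both parental replicates, as given above. The 3 sgRNAs against TAS2R43 thus gave 3 different courses.

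HGLibB_48321 against TAS2R20 had the highest T0 count of the family in parental cells, 3558, with 310 and 382 at T6, then 156 and 297 at T12. In NMYC cells it had 97 at T0, 204 and 425 at T6, then 119 and 973 at T12. The parental log2 fold change was -4.22 ± 1.39 (SE; edgeR adjusted p = 0.258). HGLibB_48303 against TAS2R1 had 38 counts at T0, 423 and 395 at T6, then 1861 and 1626 at T12 in parental cells. NMYC cells had 460 at T0, 1041 and 880 at T6, then 1270 and 1076 at T12. The T12 replicates were close to each other in both arms, and all later libraries lay above T0 in both. The parental log2 fold change, by whose p this sgRNA was picked, was 5.28 ± 1.71 (SE; edgeR adjusted p = 0.246). HGLibB_48350 against TAS2R42 had 50 counts at T0 and 2106 and 206 at T12 in parental cells, with an edgeR adjusted p of 0.378.

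In the DEFB family, HGLibB_12893 against DEFB136 had 528 counts at T0, 14 and 76 at T6, then 1 and 2 at T12 in parental cells. The NMYC libraries held 64 at T0, 13 and 182 at T6, then 5 and 50 at T12. The parental log2 fold change was -8.58 ± 3.11 (SE; edgeR adjusted p = 0.327). The third sgRNA against DEFB136, HGLibB_12892, had 38 counts at T0 and 887 and 70 at T12 in parental cells, on the opposite side. HGLibB_12850 against DEFB119 had 2823 counts at T0, 284 and 68 at T6, then 214 and 75 at T12 in parental cells, with an edgeR adjusted p of 0.333. The NMYC libraries of that sgRNA had 54 at T0, 320 and 174 at T6, then 215 and 434 at T12, so the T0 libraries were the highest and the lowest of the 10.

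HGLibB_12839 against DEFB114 had 35 counts at T0, 1005 and 279 at T6, then 1308 and 1734 at T12 in parental cells, with a log2 fold change of 5.20 ± 1.93 (SE; edgeR adjusted p = 0.341). HGLibB_12870 against DEFB127 was at 0 in the parental T0 library and had 13 and 12 counts at T6, then 619 and 262 at T12. Against a floor of 3 counts in the T0 library (0.224 CPM, counts scaled to library size), its T12 mean of 28.1 ± 16.8 CPM (SD, n = 2) was at least 126-fold higher. In NMYC cells the same sgRNA had 751 counts at T0, 40 and 163 at T6, then 48 and 35 at T12. Neither sgRNA passed the test, and the adjusted p for DEFB127 was 0.348 in edgeR.

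The difference between the arms, NMYC minus parental of the T12 against T0 log2 fold change, addresses the question of the screen directly. No sgRNA of the 3 families passed in edgeR, and of all tested sgRNAs 0% did. At an unadjusted p under 0.05, 22 KRTAP sgRNAs were more negative in NMYC cells and 9 more positive, 2 TAS2R sgRNAs were more negative and 6 more positive, and 7 DEFB sgRNAs were more negative and 1 more positive. These were 12.7%, 11.8% and 9.88% of the families, against 9.95% of all sgRNAs. The medians relative to all sgRNAs were -0.29 for KRTAP, 0.71 for TAS2R and -0.64 for DEFB, where the median of all was -0.45. Among sgRNAs that reached 30 counts in each T0 library the DEFB median was 0.09, with its sign turned, and the TAS2R median was 0.09.

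The smallest p of the difference among KRTAP sgRNAs belonged to HGLibB_25777 against KRTAP5-9, at -10.93 ± 3.19 (log2, SE; edgeR adjusted p = 0.355). For TAS2R it belonged to HGLibB_48351 against TAS2R43, at -6.43 ± 2.10 (log2, SE; edgeR adjusted p = 0.374). For DEFB it belonged to HGLibB_12875 against DEFB129, at -10.37 ± 3.24 (log2, SE; edgeR adjusted p = 0.360). That DEFB129 sgRNA had 47 counts at T0, 165 and 280 at T6, then 0 and 6 at T12 in NMYC cells. Parental cells had 11 at T0, 47 and 778 at T6, then 53 and 2096 at T12. Its T12 libraries did not overlap between the arms, but it was picked by its p for this difference. The parental replicates of this sgRNA also differed widely at T12. Its difference lay between -15.05 and -6.09 when 1 library was left out.

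On the positive side, HGLibB_48331 against TAS2R31 had 30 counts at T0, 233 and 31 at T6, then 197 and 387 at T12 in NMYC cells. Parental cells had 1293 at T0, 517 and 1334 at T6, then 134 and 26 at T12. The arms did not overlap at T12, but this sgRNA was picked by its p for the difference. That difference was 7.36 ± 2.54 (log2, SE), with an edgeR adjusted p of 0.390. The difference was 6.59 ± 2.23 for the TAS2R20 sgRNA HGLibB_48321 (edgeR adjusted p = 0.387) and 7.81 ± 2.70 for the KRTAP26-1 sgRNA HGLibB_25694 (edgeR adjusted p = 0.390). HGLibB_12872 against DEFB128 had 371 counts at T0 and 832 and 1542 at T12 in NMYC cells, and 166 at T0 and 17 and 43 at T12 in parental cells. Its T12 libraries lay apart between the arms, but it too was picked by its p for the difference. The edgeR adjusted p of that difference was 0.527.

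The earlier and the direct comparisons gave no member either. edgeR called 0 members for T6 against T0 in NMYC cells, where 0% of all sgRNAs passed, and 0 in parental cells, where 0.00189% did. It called 0 for T12 against T6 in both arms, where 0% of all sgRNAs passed in each. Directly between NMYC and parental libraries, it called 0 members at T12, where 0.00189% of all sgRNAs passed, and 0 at T6, where 0% did. At an unadjusted p under 0.05 the direct comparison at T12 had 18 KRTAP sgRNAs lower in NMYC cells and 5 higher, 2 TAS2R sgRNAs lower and 4 higher, and 4 DEFB sgRNAs lower and 3 higher. These were 9.43%, 8.82% and 8.64% of the families, against 11% of all sgRNAs. For T6 against T0 the counts were 10 lower and 2 higher for KRTAP, 1 and 0 for TAS2R, and 3 and 0 for DEFB in NMYC cells (4.92%, 1.47% and 3.7%, against 3.7% of all sgRNAs). In parental cells they were 11 lower and 12 higher for KRTAP, 5 and 5 for TAS2R, and 2 and 6 for DEFB (9.43%, 14.7% and 9.88%, against 9.26% of all). For T12 against T6 they were 8 and 4 for KRTAP, 0 and 1 for TAS2R, and 2 and 0 for DEFB in NMYC cells (4.92%, 1.47% and 2.47%, against 4.41% of all). In parental cells they were 5 and 4 for KRTAP, 3 and 2 for TAS2R, and 5 and 3 for DEFB (3.69%, 7.35% and 9.88%, against 6.44% of all). At T6 between the arms they were 2 and 3 for KRTAP, 4 and 1 for TAS2R, and 3 and 0 for DEFB (2.05%, 7.35% and 3.7%, against 3.42% of all). Without parental T12 replicate 1, the DEFB129 sgRNA HGLibB_12875 passed in the direct comparison at T12 (edgeR adjusted p = 0.0397), where 0.00566% of all tested sgRNAs did.

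DESeq2, run on the same counts, made many more calls among the members and among all sgRNAs. For T12 against T0 in NMYC cells it called 11 of the 365 members that it gave an adjusted p (3.01%), where 3.13% of all sgRNAs passed. In parental cells it called 53 of 365 (14.5%), where 11.9% of all passed. For the difference it called 30 of 377 (7.96%), where 6.78% of all passed. By family, the parental T12 against T0 calls were 5 lower and 24 higher of 224 KRTAP sgRNAs (12.9%), 6 lower and 7 higher of 65 TAS2R sgRNAs (20%), and 2 lower and 9 higher of 76 DEFB sgRNAs (14.5%). TAS2R thus had the share farthest above that of all sgRNAs, a difference that was not tested. In NMYC cells the calls came to 3.57% of KRTAP, 3.08% of TAS2R and 1.32% of DEFB sgRNAs. They were 6 lower and 2 higher for KRTAP, 0 and 2 for TAS2R (the TAS2R7 sgRNA HGLibB_48368 and the TAS2R4 sgRNA HGLibB_48340), and 1 and 0 for DEFB (the DEFB136 sgRNA HGLibB_12894). For the difference they were 14 more negative and 7 more positive for KRTAP (9.05%), 1 and 3 for TAS2R (5.97%), and 4 and 1 for DEFB (6.41%). The TAS2R calls of the difference were HGLibB_48351 against TAS2R43, more negative, and HGLibB_48321 against TAS2R20, HGLibB_48331 against TAS2R31 and HGLibB_48340 against TAS2R4, more positive. The DEFB calls of the difference were HGLibB_12832 against DEFB112, HGLibB_12870 against DEFB127, HGLibB_12875 against DEFB129 and HGLibB_12894 against DEFB136, more negative, and HGLibB_12850 against DEFB119, more positive. The lower parental DEFB calls were HGLibB_12893 against DEFB136 and HGLibB_12850 against DEFB119. The lower parental KRTAP calls were HGLibB_25584 against KRTAP10-8, HGLibB_25663 against KRTAP20-1, HGLibB_25694 against KRTAP26-1, HGLibB_25759 against KRTAP5-3 and HGLibB_25805 against KRTAP9-6. The higher KRTAP calls in NMYC cells were HGLibB_25671 against KRTAP21-1 and HGLibB_25642 against KRTAP19-6.

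DESeq2 called 0 members for T6 against T0 in NMYC cells, where 0.175% of all sgRNAs passed, and 32 in parental cells, where 7.91% did. For T12 against T6 it called 2 members in NMYC cells, where 0.953% of all sgRNAs passed, and 11 in parental cells, where 2.56% did. Between the arms it called 27 members at T12, where 8.38% of all sgRNAs passed, and 1 at T6, where 0.362% did. The pair in NMYC cells was HGLibB_25668 against KRTAP20-3, lower, and HGLibB_25642 against KRTAP19-6, higher, and the single call at T6 was HGLibB_25663 against KRTAP20-1, higher in NMYC cells. These 3 are named because they were called.

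sgRNAs against 1 gene were then combined by rank aggregation, which asks whether the sgRNAs of a gene lie together near one end of the ranking. Of the 135 family genes with at least 2 tested sgRNAs (86 KRTAP, 24 TAS2R and 25 DEFB), 0 passed an adjusted p of 0.05 in any T12 against T0 comparison, and 0 of all 18197 genes did. edgeR on summed counts per gene also called 0 family genes, where 2 of the 18197 genes passed in NMYC cells (0.011%), 1 in parental cells (0.0055%) and 0 for the difference (0%). At an unadjusted p under 0.05 in NMYC cells, 8 family genes were lower (5.93%) and 8 higher (5.93%), where 5.02% and 5.07% of all genes were. In parental cells 4 were lower (2.96%) and 9 higher (6.67%), against 5.11% and 4.85% of all genes. For the difference 8 were more negative (5.93%) and 7 more positive (5.19%), against 4.78% and 4.85%.

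Agreement among the 3 sgRNAs of a gene was set beside that of all genes. The family shares were scattered around the share of all genes, and the differences were not tested. In NMYC cells the 3 tested sgRNAs lay on the same side of the median in 14 of 69 KRTAP genes (20.3%), 5 of 20 TAS2R genes (25%) and 4 of 20 DEFB genes (20%), and in 25.4% of all genes. In parental cells they did in 9 of 69 KRTAP genes (13.0%), 6 of 20 TAS2R genes (30%) and 5 of 20 DEFB genes (25%), and in 24.8% of all genes. For the difference the counts were 10 of 69 (14.5%), 7 of 20 (35.0%) and 4 of 20 (20%), and 25.3% of all genes.

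TAS2R31 was the TAS2R gene with the smallest rank aggregation p on the lower side in parental cells (adjusted p = 0.945). HGLibB_48330 had 1302 counts at T0 and 92 and 149 at T12 there, HGLibB_48331 the counts given above, and HGLibB_48332 had 104 at T0 and 75 and 70 at T12. All 3 lay below the median of all sgRNAs, by amounts that differed widely. TAS2R1 was the corresponding gene on the higher side (adjusted p = 0.983). Beside HGLibB_48303, its sgRNA HGLibB_48305 had 25 counts at T0 and 534 and 296 at T12 in parental cells, and HGLibB_48304 had 14 at T0 and 12 and 92 at T12. The NMYC T0 library held 559 counts of HGLibB_48305 and 138 of HGLibB_48304, so all 3 sgRNAs against TAS2R1 started lower in the parental arm. TAS2R7 on the higher side (adjusted p = 0.959) and TAS2R9 on the lower side (adjusted p = 0.983) led the family in NMYC cells.

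KRTAP6-1, a high glycine-tyrosine protein, had the smallest p on the lower side in both arms (adjusted p = 0.854 in NMYC cells and 0.987 in parental cells). In NMYC cells HGLibB_25778 had 756 counts at T0 and 12 and 5 at T12, HGLibB_25780 had 1052 at T0 and 32 and 32 at T12, and HGLibB_25779 had 11 at T0 and 68 and 12 at T12. The first of these sgRNAs also had lower parental counts at T12, 20 and 77, than at T0, 477. HGLibB_25780 did not, with 337 and 395 at T12 and 112 at T0 in parental cells. KRTAP21-1 (adjusted p = 0.959) led the higher side in NMYC cells and KRTAP5-3 (adjusted p = 0.983) in parental cells, each through 1 sgRNA described above. KRTAP5-9 (adjusted p = 0.988) and KRTAP26-1 (adjusted p = 0.983) led the 2 sides of the difference.

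DEFB135, a beta-defensin gene of chromosome 8, led the higher side in NMYC cells (adjusted p = 0.955). Its 3 sgRNAs had 7, 104 and 13 counts at T0 in NMYC cells. At T12 HGLibB_12889 had 180 and 178, HGLibB_12890 had 1138 and 503, and HGLibB_12891 had 2 and 361. The first 2 were higher in both replicates and the third was not. DEFB4B led the lower side (adjusted p = 0.974). DEFB136 (adjusted p = 0.987) and DEFB114 (adjusted p = 0.983) led the sides in parental cells, and DEFB129 (adjusted p = 0.988) and DEFB116 (adjusted p = 0.978) led those of the difference. HGLibB_12846 against DEFB116 had 27 counts at T0 and 207 and 8 at T12 in NMYC cells, and 1368 at T0 and 52 and 730 at T12 in parental cells.

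Summed over its sgRNAs, the level differed widely between genes of a family and between the libraries of 1 gene. TAS2R5 had the highest median over the 10 libraries in its family, 138.5 CPM, with a range of 52.2 to 279.3 CPM, and TAS2R16, a receptor for bitter glucosides, had the lowest, 11.8 CPM, with a range of 3.61 to 71.1 CPM. TAS2R38, the receptor for phenylthiocarbamide, lay at a median of 22.4 CPM (4.91 to 62.5 CPM) and TAS2R14, a broadly tuned receptor, at 37.7 CPM (14.6 to 95.1 CPM). TAS2R10, also broadly tuned, ranged from 4.10 to 247.7 CPM. Most ranges of neighbouring genes overlapped, so their order is not separated by the spread over libraries. KRTAP22-2 led its family with 126.0 CPM (70.8 to 176.7 CPM), and KRTAP4-7, listed with 1 sgRNA, was last with 0.036 CPM (0 to 1.99 CPM). In the DEFB family DEFB119 had 82.9 CPM (23.1 to 229.1 CPM), and DEFB1, the constitutive epithelial beta-defensin, had 34.3 CPM (11.3 to 58.5 CPM). DEFB126, which coats sperm, had 49.4 CPM (11.1 to 102.3 CPM).

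The other genes given by level came from a fixed list, and their levels also varied widely over the 10 libraries. The summed sgRNAs ranged from 3.25 to 69.1 CPM for KRTAP1-1, 17.1 to 199.9 CPM for KRTAP10-1, 12.8 to 58.4 CPM for KRTAP19-1, 0.287 to 51.6 CPM for KRTAP5-1 and 3.53 to 141.2 CPM for KRTAP6-1. They ranged from 5.75 to 194.1 CPM for TAS2R1 and from 23.2 to 88.3 CPM for TAS2R4. DEFB4A had 2.44 to 173.5 CPM, DEFB103B, the gene copy for beta-defensin 3, had 0.463 to 17.3 CPM from 1 sgRNA, and the epididymal DEFB118 had 13.8 to 92.5 CPM. In TAS2R1 the lowest value was parental T0, and in KRTAP6-1 it was an NMYC T12 library. KRTAP2-1 was not analysed here.

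Several beta-defensin genes lie in a repeated segment of chromosome 8 as near-identical copies labelled A and B, and sgRNAs against them may cut both. Of the 11 DEFB genes listed with a single sgRNA, 10 are such copies, so the gene that each of these sgRNAs cut is uncertain. For DEFB4A, the inducible beta-defensin 2 gene, HGLibB_12896 had 178 counts at T0, 15 and 0 at T6, then 0 and 1 at T12 in NMYC cells, and HGLibB_12895 had 516 at T0, 967 and 47 at T6, then 802 and 2405 at T12. For the B copy, HGLibB_12899 had 52 counts at T0, 7 and 8 at T6, then 0 and 8 at T12 in NMYC cells, and HGLibB_12898 had 1405 at T0, 1002 and 681 at T6, then 348 and 646 at T12. In all 5 NMYC libraries HGLibB_12895 lay above HGLibB_12896 and HGLibB_12898 above HGLibB_12899, and in ratio the closest pair was that of DEFB4A at T0.

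Position in the genome was taken from RefSeq for the assembly GRCh38.p14, in which all 150 genes were matched, 149 by symbol and 1 by a synonym. The following groups were formed after values were seen and carry no test. The 14 TAS2R genes of chromosome 12 (40 tested sgRNAs) had a median log2 fold change for T12 against T0, relative to all sgRNAs, of 0.36 in NMYC cells and -1.23 in parental cells, and 28 of the 40 lay below the median of all in parental cells. The 9 TAS2R genes of chromosome 7 (25 tested sgRNAs) had 0.23 in NMYC cells and 0.15 in parental cells. In counts, the 42 listed sgRNAs of chromosome 12 had a median of 263.5 in the T0 library of parental cells, 236.5 and 83 in those of T6, and 172 and 98 in those of T12. These are raw counts, not scaled for the depth of the libraries. All listed sgRNAs had medians of 84 at T0, 169 and 50 at T6, then 106 and 114 at T12 in the same libraries.

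The 13 DEFB sgRNAs of chromosome 6, against DEFB110, DEFB112, DEFB113, DEFB114 and DEFB133, had a median of -0.70 in NMYC cells and 3.21 in parental cells. Their median count was 188 at T0, 178 and 85 at T6, then 142 and 98 at T12 in NMYC cells. In parental cells it was 16 at T0, 220 and 88 at T6, then 207 and 75 at T12. The parental T0 library was the low one, with 7 of the 13 sgRNAs under 30 counts, against 2 of 13 in the NMYC T0 library. These are raw counts too. All listed sgRNAs had medians of 113 at T0, 187 and 117 at T6, then 132 and 82 at T12 in NMYC cells. In parental cells they had 84 at T0, 169 and 50 at T6, then 106 and 114 at T12. The 39 DEFB sgRNAs of chromosome 20 had medians of 0.03 in NMYC cells and 0.04 in parental cells, and the 25 of chromosome 8 had 0.72 and 1.10.

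By composition, the 57 tested sgRNAs against high glycine-tyrosine KRTAP genes had a median log2 fold change, relative to all sgRNAs, of -0.53 in NMYC cells and -0.57 in parental cells. The 106 against high-sulfur genes had -0.22 in NMYC cells and 0.70 in parental cells, and the 81 against ultrahigh-sulfur genes had 0.21 and 0.27. The quartiles of the first class ran from -2.32 to 1.61 in NMYC cells and from -1.79 to 1.49 in parental cells, so each class spanned 0 widely.

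Few members were lost or gained by a count threshold, and few of all sgRNAs were. With thresholds set after the data were seen, a sgRNA counted as lost when it had at least 300 counts at T0 and at most 10 in both T12 libraries, and as gained in the reverse case. Among sgRNAs with at least 300 counts at T0 in NMYC cells, 2 of 67 KRTAP sgRNAs were lost (KRTAP20-3 and KRTAP5-3), as were 0 of 23 TAS2R, 0 of 16 DEFB and 359 of all 13938 such sgRNAs (2.58%). In parental cells 0 of 78 KRTAP, 0 of 25 TAS2R and 1 of 20 DEFB sgRNAs (DEFB136) that reached 300 counts at T0 were lost, as were 468 of all 17127 (2.73%). Among sgRNAs with at most 10 counts at T0, gains in NMYC cells were 1 of 45 KRTAP (KRTAP10-10), 0 of 4 TAS2R, 0 of 9 DEFB and 135 of all 8649 sgRNAs (1.56%). In parental cells they were 2 of 80 KRTAP (KRTAP17-1 and KRTAP5-9), 0 of 9 TAS2R, 1 of 24 DEFB (DEFB112) and 560 of all 14464 sgRNAs (3.87%). By the same rule 5 of 225 non-targeting sgRNAs were lost in NMYC cells (2.22%) and 5 of 267 in parental cells (1.87%). Gains among them were 2 of 160 (1.25%) and 9 of 273 (3.3%).

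Other genes of the same biology were examined as 3 lists. Of 17 hair keratins, the filament proteins that KRTAP proteins bind, 15 could be tested as genes, and 0 passed in either direction in any T12 against T0 comparison. Of 10 genes of taste signalling, among them GNAT3 (gustducin), PLCB2 and TRPM5, 10 were tested and 0 passed. Of 9 genes for other antimicrobial peptides and for CCR6, a chemokine receptor that beta-defensins can bind, 7 were tested and 0 passed. The median gene log2 fold change, relative to the median gene, was -0.39, 0.52 and -0.48 for the 3 lists in NMYC cells and 0.13, 0.18 and -0.76 in parental cells, against 0 for all genes by construction.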

How the data were processed

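The integrated sgRNA cassette was amplified from genomic DNA of 22Rv1 cells and sequenced in 10 libraries. The deposited values are raw counts of reads per sgRNA, not normalized, and MAGeCK is the tool given, without a version, in the submitters' processing notes. The read matching settings are not given in the sources, and no read carries a molecular identifier, so counting error is a lower limit of the error. Libraries were grouped by the titles and conditions of the labels.

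sgRNAs with a mean of at least 20 counts over the 10 libraries were tested with edgeR 4.0.16 (limma 3.58.1, R 4.3.3; TMM, 6 group means, quasi-likelihood test with 4 residual degrees of freedom) in 9 contrasts, with Benjamini-Hochberg adjustment over all 53040 sgRNAs and a threshold of 0.05. Standard errors are the log2 fold change over the square root of F. Each arm has 1 T0 library, so the spread at T0 is taken from the later groups. Genes were scored by robust rank aggregation with an exact null over sgRNAs with a one-sided p under 0.25. The script was tested on simulated data. Alternatives included DESeq2 1.42.0, other size factors, other filters, each arm alone, each later library left out, and a block for the culture.

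The named sgRNAs are, per family and direction, the 2 with the smallest p in each T12 against T0 comparison, the named genes those with the smallest rank aggregation p, and the genes given by level a fixed list. The members and lists were chosen with earlier results of these data known. The labels say that each replicate was sampled at successive passages, so the numbers pair T6 with T12. Deviations of same-numbered libraries from their group means had a correlation of -0.00877 in NMYC cells and 0.0647 in parental cells over all tested sgRNAs. Within the families the NMYC values were -0.0772 for KRTAP, 0.16 for TAS2R and 0.0706 for DEFB, and the parental ones 0.121, 0.121 and 0.22. The labels do not say that the cultures come from separate infections, so p-values measure the spread between these cultures only.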

Additional observations from a re-analysis of the deposited data

Results flagged for a closer look

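The medians of the 3 families at T6 and at T12 were looked through. In 3 of them both replicates of NMYC cells and both replicates of parental cells lay on opposite sides of 0. They are medians of the log2 ratio to the T0 library, relative to all tested sgRNAs and averaged over the 2 replicates of an arm, given as NMYC minus parental, and the differences between the arms were not tested. For T12 against T0 the value was -0.17 for KRTAP and 0.32 for TAS2R. For T6 against T0 it was -0.56 for DEFB, where 1 NMYC replicate lay at -0.0015, next to 0. Both replicates of an arm are set against the same single T0 library. Non-targeting sgRNAs, taken in the same way, lay above 0 in both replicates of both arms at T6 and T12. At T12 they had 0.16 and 0.21 in NMYC cells and 0.049 and 0.22 in parental cells. TAS2R had 0.22 and 0.21 in NMYC cells and -0.14 and -0.067 in parental cells. KRTAP had -0.054 and -0.047 in NMYC cells and 0.14 and 0.11 in parental cells. The fitted difference for T12 was -0.29 for KRTAP and 0.71 for TAS2R. It moved by over 1.5 times with the replicate block, to -0.13 and 0.19. It ran from -0.50 to -0.084 and from 0.30 to 1.02 when 1 library was left out, and the TAS2R value was 0.092 with a minimum of 30 counts in each T0 library.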

How the results depend on the processing

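With edgeR no family gene passed under any alternative and no log2 fold change of a named sgRNA changed sign. For T12 against T0, DESeq2 called 11 members in NMYC cells (3.01%, against 3.13% of all sgRNAs) and 53 in parental cells (14.5%, against 11.9%). For the difference it called 30 (7.96%, against 6.78%). For T6 against T0 in parental cells it called 32 (9.25%, against 7.91%). For T12 against T6 it called 2 in NMYC cells (0.548%, against 0.953%) and 11 in parental cells (2.85%, against 2.56%). Between the arms it called 27 at T12 (6.87%, against 8.38%) and 1 at T6 (0.274%, against 0.362%). In edgeR the NMYC libraries alone gave 2, where 0.545% of all tested sgRNAs passed. Leaving out a library gave 0 to 1 between the arms at T12 and 0 elsewhere. The cause of these differences between tools was not tested.

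The family medians, relative to all sgRNAs, changed little with the size factors in NMYC cells. Of the settings given here, the largest changes came with the minimum of 30 counts in each T0 library. The KRTAP median in NMYC cells was -0.16 with median-of-ratios size factors, -0.15 with non-targeting size factors, -0.11 with no filter, -0.28 with a minimum of 30 counts in each T0 library and -0.16 in DESeq2. For TAS2R these were 0.26, 0.25, 0.25, 0.21 and 0.26. In parental cells no filter gave 0.22 for KRTAP and -0.68 for TAS2R, and the T0 minimum gave -0.019, -0.30 and 0.55 for KRTAP, TAS2R and DEFB. For the difference KRTAP had -0.33 with median-of-ratios and -0.34 with non-targeting size factors, -0.25 with no filter and -0.25 with the T0 minimum. TAS2R had 0.40 with no filter and 0.092 with the T0 minimum, which gave 0.095 for DEFB. The cause was not tested.

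With the replicate block, which pairs T6 and T12 of a culture, no member was called, and the KRTAP and TAS2R medians were -0.075 and 0.36 in NMYC cells and -0.13 and 0.19 for the difference. The KRTAP median was 0.10 in parental cells. The block changed no call.

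Leaving out 1 library gave medians in NMYC cells of -0.23 to -0.053 for KRTAP, 0.24 to 0.32 for TAS2R and -0.38 to 0.12 for DEFB. In parental cells they were 0.11 to 0.22 for KRTAP and -0.73 to -0.093 for TAS2R. For the difference they were -0.50 to -0.084 for KRTAP, 0.30 to 1.02 for TAS2R and -1.31 to -0.38 for DEFB.

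Each arm has 1 T0 library, so a deviation of that library enters every fold change against T0 of the arm. A median of 43 to 258 counts per family sgRNA in a library limits counting error less than the replicate spread, which exceeded 4-fold for many members. The 20 members under the count minimum were not tested.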
